A study of Saccharomyces cerevisiae with 13 samples.

Results

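Breaks mapped in wild-type yeast after hydroxyurea were read against 2 references: a mock labelling without biotin, and cells held in G1. The list called over the mock held 60 peaks and the list called over G1 held 90. They were sorted by overlap of 1 bp or more into 58 peaks present in both lists, 32 present over G1 only and 2 present over the mock only, which makes 92 distinct regions among the 3709 peaks of the 13 lists of the series. The sorting used positions alone, and genes had no part in it. A peak had to pass the caller to enter a list, and the lowest scores were 51.3 over the mock and 50.5 over G1. Score and class are therefore not independent.

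The strain was WFA72 (MEC1), called WT here, with the MEC1 checkpoint kinase gene intact. Alpha factor, the yeast mating pheromone, at 3 µM held the cells in G1 before their release into 200 mM hydroxyurea (HU) for 1 h. All libraries of the comparison came from the Control experiment, and both lists rest on the same labelled HU library, so they are not independent. The sample titles name the reference material (mock labelling in 1 case, G1 in the other), while the descriptions name HU peaks called against it. The lists were read as the descriptions state, and every value below depends on that reading. The matched strain WFA73 (mec1-1), called mec1 here, carries a mutant MEC1 and went through the same steps.

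Hydroxyurea blocks ribonucleotide reductase, the enzyme that makes deoxynucleotides, so replication forks slow soon after they leave the first origins. The Mec1 kinase, the yeast relative of ATR, senses stalled forks and holds them in a state from which they can restart. Break-Seq adds biotin to broken DNA ends while the chromosomes are still held in agarose, then pulls down and sequences the tagged pieces. A peak over the mock therefore marks signal that depended on the biotin label, and a peak over G1 marks signal above that in cells that had not begun S phase.

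The lists hold positions and a score from the peak caller for each peak, with no read counts, so sequencing depth is unknown. The score is the authors' value and its scale is not stated. A score of exactly 3100 was given to 788 peaks over 11 of the 13 lists, and it was the maximum of 8 of them, while 30 peaks in 3 lists scored higher. Peaks at 3100 therefore cannot be ordered among themselves, and an equal score of 3100 in both lists does not show equal signal. Each list came from 1 library per reference with no replicate, so no test was possible between lists or classes. Shares carry 95% binomial intervals by the exact Clopper-Pearson method. These cover counting error only, and neighbouring peaks are not independent. Positions are 1-based on sacCer3. No genome or promoter sequence was used here, so no sequence is shown.

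The mock list was almost contained in the G1 list. Of the 60 peaks over the mock, 58 (96.7%, interval 88.5 to 99.6%) were also called over G1, and all 58 had the same start and end in both lists. In the other direction, 58 of 90 peaks over G1 (64.4%, interval 53.7 to 74.3%) were called over the mock. In mec1 the same sorting gave 472 peaks in both lists, which was every peak over the mock and 86.3% (interval 83.1 to 89.1%) of the 547 over G1. Peaks over G1 only made up 35.6% (interval 25.7 to 46.3%) of the WT list and 13.7% (interval 10.9 to 16.9%) of the mec1 list. With 1 pair of lists per strain, the strain difference was not tested.

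Where a region was in both lists, its score over G1 was never below its score over the mock. The score was the same in 18 of the 58 regions, 1 of them at 3100 in both lists, and higher over G1 in 40. Among the 18 with equal scores were the XIII region over FCP1 (1035 in both lists) and the XV region over NRT1 and YOR072W (479.7 in both). Only 4 regions had a score over G1 at least 5 times that over the mock. They were the IX region over MPH1, a DNA helicase gene (88.1 over the mock and 838 over G1), the IV region over SOK1 (131 and 1011), the III region over KCC4 (51.4 and 304), and the VII region beside PMA1 (117 and 675), which encodes the plasma membrane proton pump. As the scale is not stated, no difference in breakage is read from these values.

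**Figure D1:**
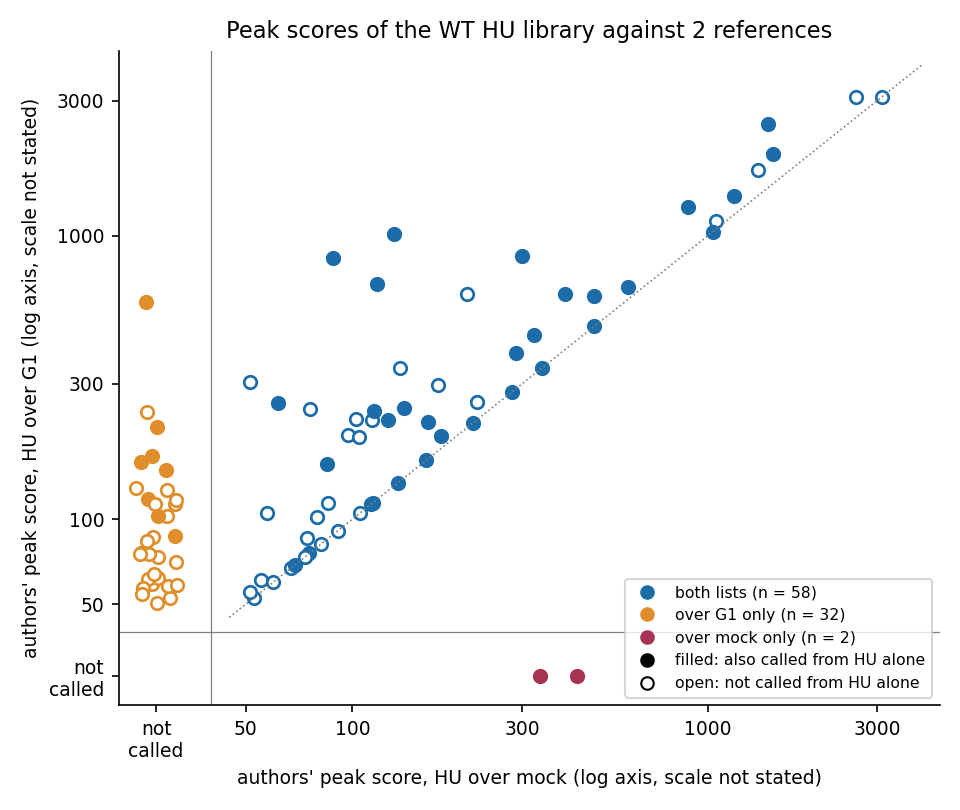
Authors' peak score over the mock (x axis, log) and over G1 (y axis, log) for the 92 regions, with regions missing from a list set in the strip marked not called (sideways scatter there is for display). The dotted line marks equal scores. All 58 shared regions lie on it or above it, and the 2 regions over the mock only are filled, which marks regions also called from the HU library alone.

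The classes differed in width. Regions in both lists were 996 to 7290 bp wide with a median of 2156 bp, and 12 of 58 were 4 kb or wider. Regions over G1 only were 992 to 2946 bp wide with a median of 1258 bp, none reached 4 kb, and 30 of 32 were under 2 kb. The shared regions covered 154 kb (1.28% of the genome) and the G1-only regions 45.3 kb (0.376%). Scores over G1 had a median of 243 (52.7 to 3100) in shared regions and 85.1 (50.5 to 583) in G1-only regions, and 47 of 58 shared regions (81.0%) but 14 of 32 G1-only regions (43.8%) had a score of at least 100. The ranges of both width and score overlapped. As no shared region scored lower over G1 than over the mock, score over G1 and class are not independent. How far the sorting itself shapes the difference in score or in width was not tested.

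**Figure D2:**
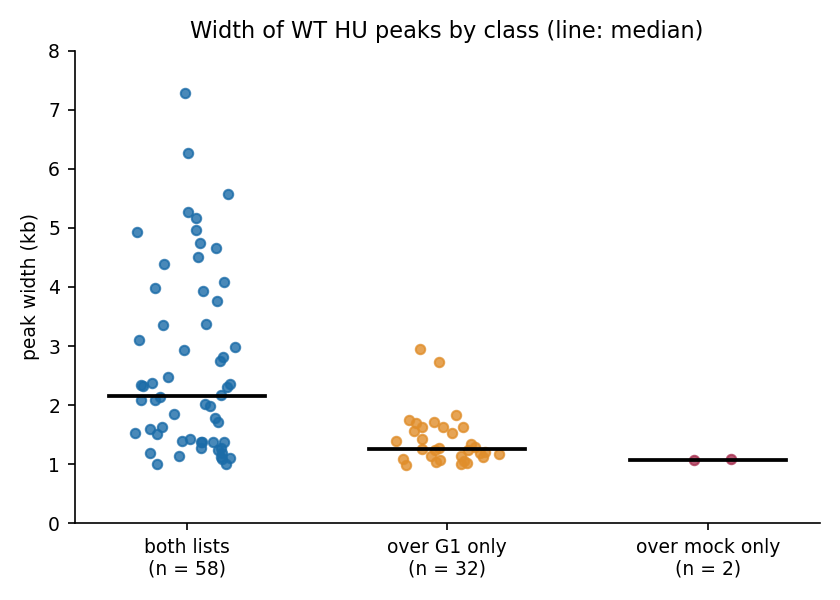
Peak width in kb for each region of the 3 classes, with a line at the median. Widths above 4 kb occur among the 58 shared regions alone, and the 32 regions over G1 only lie between 992 and 2946 bp.

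The highest scores in both lists came from a few broad domains. On chromosome III, 217932 to 224194 scored 3100 in both lists, the top value described above. It lies over PWP2, a gene of small ribosomal subunit assembly, CTR86, the Gcn2 regulator gene YIH1 and the threonine synthase gene THR4. The adjoining region at 225512 to 230773 scored 1477 over the mock and 2489 over G1, and holds the forkhead transcription factor gene HCM1, the splicing gene BUD31, TVS1 and the tRNA gene SUP61. A weaker peak at 231205 to 232580 (67.0 in both lists) over RAD18, the ubiquitin ligase gene of post-replication repair, ended this domain, whose span was 14.6 kb.

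Chromosome XII gave another pair of broad domains. At 366864 to 374153, the widest region of all, the score was 2618 over the mock and 3100 over G1. Under it lie HOG1, the MAP kinase gene of the osmotic stress response, the peroxiredoxin gene AHP1, the abundant cell wall protein gene CCW12, YLR108C and YLR112W. Its neighbour at 374339 to 379920 scored 1382 and 1712 over AVL9, the mRNA 3′ end processing gene CFT2 and a tRNA gene (YNCL0007W). Further along, 507206 to 512378 scored 1523 and 1949 and covered the whole of RFX1, which encodes the repressor of damage-inducible genes such as those for ribonucleotide reductase, with YLR177W and the pseudouridine synthase gene CBF5. Next to it, 514126 to 519050 scored 1054 and 1124 and reached SAM1, which makes S-adenosylmethionine, SWI6, a subunit of the factors that drive G1/S transcription, VTA1 and YLR179C.

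Chromosome I held a pair of regions 1541 bp apart. The region at 176994 to 181661 scored 1189 over the mock and 1381 over G1, with DFP1, PAU7 and the tRNA gene SUP56. That at 170717 to 175452 scored 879.7 and 1261 and lies over CDC15, a kinase gene of mitotic exit, and KIN3. The remaining regions among the first 10 were chromosome XIII 818635 to 822561, over the RNA polymerase II phosphatase gene FCP1 and the ubiquitin receptor gene DSK2, and chromosome III 101174 to 106134 (595 and 659). The latter holds GBP2, a gene of mRNA export, ILV6 of branched amino acid synthesis, the SAGA subunit gene SGF29 and YCL012C.

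Several of the strongest regions over the references were missing when the HU library was called alone, although that list shares the library. Of the first 10 shared regions 6 were in it. The III region over PWP2 and the XII regions over HOG1, AVL9 and SAM1 were not. The list called alone held 43 peaks, of which 31 were shared regions, 8 were G1-only regions, 2 were the mock-only regions and 2 were in neither list (chromosome IX 208445 to 210683 at YIL082W-A, and chromosome VII 711076 to 712607 at YGR109W-B). By class, 53.4% of shared regions and 25.0% of G1-only regions were called alone.

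The reverse was seen beside the ribosomal RNA genes and near 2 chromosome ends. The 3 highest scores of the list called alone were 3100 at chromosome XII 489753 to 490882, 1159 at chromosome X 6627 to 7698 and 1119 at chromosome IX 6631 to 7712, and the next was 209.8. The XII region, over RRT15 and YLR162W, starts 283 bp beyond the last ribosomal RNA gene of the annotated array. It stayed in both lists, with 300.1 over the mock and 849 over G1. The X and IX regions are the 2 regions called over the mock only, with scores of 429.8 and 338, and neither was called over G1.

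These mock-only regions touch no annotated gene. On chromosome X the region lies 496 bp from YJL225C and 1077 bp from PAU1, and on chromosome IX it lies 483 bp from YIL177C and 1080 bp from PAU14. PAU1 and PAU14 belong to the seripauperin family of cell wall proteins found near telomeres. The starts of the 2 regions differ by 4 bp and their ends by 14 bp when each is counted from its own left chromosome end. Chromosome ends can carry similar copies of a block, and reads from such copies may not be assignable to 1 of them. Whether these 2 regions are such copies was not tested, as no sequence was used. How the aligner placed such reads is not given in the sources used here. Both regions were also in the mec1 Control list called from HU alone, and in neither mec1 list called over a reference.

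The regions over G1 only were led by chromosome IX 249405 to 252350 (score 583), over VHR1, an activator gene of biotin uptake and synthesis, and YIL055C. Chromosome XIII 812735 to 815468 (239) lies over ZDS1 and the CAAX protease gene RCE1 and starts 236 bp from a shared region. Chromosome XVI 511772 to 513611 (211) overlaps the 3′ part of the SUMO protease gene ULP1. Chromosome VIII 553204 to 554907 (167) reaches IMD2, a gene of guanine nucleotide synthesis, and the acid phosphatase gene PHO12, 7140 bp from the chromosome end, where both genes have close relatives elsewhere.

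Next came chromosome VII 835347 to 836874 (159) over PUS6 and LSO2, and chromosome XIII 288822 to 290574 (149) over the 3′ part of HXT2, a high-affinity glucose transporter gene. Chromosome IV 913342 to 914679 (128) and 914993 to 916615 (127) lie over HTB1 and HTA1 and reach CRF1 and ADK1. Chromosome III 162030 to 163449 (117) holds PMP1, a regulatory subunit gene of the proton pump, SLM5, YCR024C-B and YCR025C. Chromosome XV 167096 to 168720 (117) touches no gene and lies between ATG34 and ATG19. Being absent from the mock list says only that a region was not called there, and not that it lacked signal over the mock.

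Peaks often lay near one another, as with gaps of 131 bp at CRF1 and 185 bp between the HOG1 and AVL9 regions. Whether such close peaks are parts of 1 stretch was not tested, and no background spacing was computed. When peaks closer than 5 kb were joined, the 92 regions fell into 62 domains, of which 19 held more than 1 peak. Shared regions lay in such domains in 31 of 58 cases. G1-only regions had another peak within 5 kb in 18 of 32 cases, and in 11 of these the same domain held a shared region. Of the domains, 35 held shared regions alone, 17 held G1-only regions alone, 8 held both and the mock-only regions made up the remaining 2.

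In the mixed domains the highest score over G1 belonged to a shared region, except in the domain on chromosome IX. On chromosome XIII, 810188 to 822561 held shared regions at ZDS1 and SCS7 and at FCP1, with G1-only regions at ZDS1 and RCE1 and at BUL1 between them, and FCP1 (1035) had the highest score over G1. On chromosome IX, 243088 to 252350 held shared regions at YRB2 and ARC15 and at SNP1, followed by G1-only regions at RGI2 with the tRNA gene SUP17 and at VHR1. Here the G1-only VHR1 region (583) scored above the shared SNP1 region (342). On chromosome IV, 432529 to 439829 held a shared region over 2 tRNA genes (YNCD0005C and YNCD0006W), flanked by G1-only regions at GRX6, YDL009C and APC11 and at the proteasome gene RPT2.

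The regions were unevenly spread over chromosomes. Chromosome III, with 2.62% of the genome, held 12 of 92 regions (13.0%), which is 37.9 per Mb against 7.63 per Mb over the genome. Many of these are neighbours. The domains at 70290 to 81364, 101174 to 113572 and 217932 to 232580 held 3 regions each, so the count is not of independent places. Chromosome XII held 11 regions, all shared. Chromosome IV held 7 shared and 7 G1-only regions, and chromosome XIII 2 shared and 6 G1-only. Chromosomes VI and XIV, together 8.73% of the genome, held none in either list, and chromosome V held 2, both over G1 only.

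Chromosomes VI and XIV were not empty in other libraries. WT Exp C called from HU alone had 5 and 4 of its 103 peaks on them. The mec1 Control experiment had 19 and 26 of 472 over the mock, and 22 and 29 of 547 over G1. The WT Control list called alone had none on either, as in the lists over the references. Chromosome III had 4 of the 103 peaks in WT Exp C. In the mec1 Control lists it had 23 of 472 over the mock and 26 of 547 over G1, smaller shares than in the 92 WT regions.

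**Figure D3:**
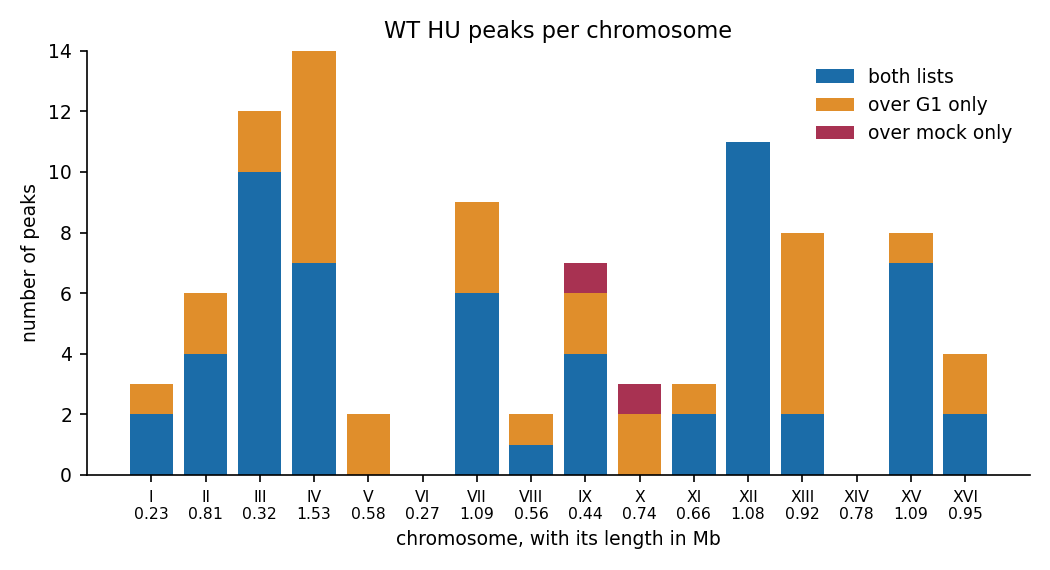
Number of WT HU regions per chromosome, stacked by class, with chromosome length in Mb under each name. Chromosome III holds 12 regions although it is one of the short chromosomes, chromosome XII holds 11 shared regions and no other class, and chromosomes VI and XIV hold none.

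Shared regions overlapped 132 of 6431 nuclear genes (2.05%), G1-only regions 50 (0.777%) and all regions together 180 (2.80%). ZDS1 and the polyamine transporter gene TPO3 were each reached by a region of both classes. These shares are the background for the gene groups that follow, and no group was tested for enrichment. The counts depend on whole peaks, as 200 bp around the midpoints reached 39 genes for shared and 20 for G1-only regions.

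Histone genes, which are transcribed in S phase, stood at 5 of 11 (45.5%). HTA2 and HTB2, a divergent pair for histones H2A and H2B, were reached by 1 shared region at chromosome II 235603 to 240111. The region scored 397.6 over the mock and 625 over G1, and its midpoint lay between ECM15 and NTH2. HTB2 lay whole under it, and HTA2 was 47.6% covered. Their counterparts HTA1 and HTB1 on chromosome IV lay under 2 neighbouring G1-only regions (127 and 128 over G1). Members of such a pair are adjacent, so the 5 genes are not independent. The histone H3 gene HHT1 lay whole under a G1-only region at chromosome II 255900 to 256937 (75.8), 1956 bp from a shared region over FLR1. The remaining H3 and H4 genes, HHO1, HTZ1 and CSE4 were not reached. The H2A and H2B gene copies are close in sequence, so reads may not separate them.

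Glycolytic and fermentation genes, among the most strongly expressed in yeast, stood at 4 of 25 (16.0%). TPI1 of triosephosphate isomerase (139.8 over the mock, 247 over G1), TDH3 of glyceraldehyde-3-phosphate dehydrogenase (61.7 and 256) and ADH1 of alcohol dehydrogenase (218 in both lists) were reached by shared regions. In each of these 3 the part under the peak was the 5′ end, with 24.9, 13.0 and 15.7% of the gene covered. The scores belong to whole regions. The midpoints of the TPI1 and TDH3 regions lay inside the neighbouring genes DET1 and PDX1, and that of the ADH1 region between ADH1 and YOL085C. The aldolase gene FBA1 was reached at its 3′ end by a G1-only region (113), with 40.2% covered.

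Among transporters, 2 of 21 sugar transporter genes and 4 of 42 permease and ion transport genes were reached (9.52% of each). HXT5, a hexose transporter gene of slow growth, was reached at its 3′ end by a shared region with 114 in both lists, and HXT2 at its 3′ end by the G1-only region given above. AGP1, a broad amino acid permease gene, was reached at its 3′ end by a shared region (85.6 and 114). PMA1 was reached at its 5′ end, and its regulator gene PMP1 lay whole under a G1-only region. TPO3 was reached at its 5′ end by a shared region (115 and 240.2) and at its 3′ end by a G1-only region (75.0).

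Checkpoint and nucleotide supply genes gave 2 of 25 (8.00%), RFX1 and the thymidylate synthase gene CDC21, both whole under shared regions. CDC21, on chromosome XV beside the cohesion protector gene SGO1, had 105 over the mock and 194 over G1. DNA repair genes gave 3 of 56 (5.36%), all in shared regions: RAD18 and MPH1, already given, and RAD6, whose product is the partner of Rad18 in ubiquitination of PCNA (74.4 and 85.5). The G1/S, replication and cohesion list gave 1 of 49 (2.04%), SWI6, which was reached at its 5′ end.

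The other lists gave shares from 0 to 6.06%. Pheromone response gave 1 of 31, the cell fusion gene FUS1 (114 and 223), and iron homeostasis gave 1 of 31, the vacuolar metal transporter gene COT1 (59.8 in both lists). Cell wall genes gave 2 of 42, CCW12 in a shared region and TIR1 in a G1-only region (58.2), and stress genes 2 of 33, the trehalose synthesis gene TPS1 (135 in both lists) and RGI2 over G1 only (57.3). Cytosolic ribosomal proteins gave 1 of 138, RPL36A over G1 only (103), the subtelomeric families 1 of 67, PHO12, and ergosterol synthesis 0 of 26.

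Transfer RNA genes were overlapped by 6 of 58 shared regions (10.3%, interval 3.89 to 21.2%) and 1 of 32 G1-only regions (3.12%, interval 0.0791 to 16.2%). Counted as genes, shared regions reached 7 of 275 tRNA genes (2.55%): SUP56, SUP61, YNCD0005C, YNCD0006W, YNCL0001W, YNCL0007W and YNCL0033C. G1-only regions reached 1 (0.364%), SUP17. The intervals of the 2 classes overlap, and the wider shared regions have more room to reach a gene. Small nucleolar RNA genes were reached only by G1-only regions in these lists, SNR11 beside RPL36A and SNR67 on chromosome V, 2 of 76 (2.63%). The spliceosomal U6 RNA gene SNR6 lay under a shared region at chromosome XII 365344 to 366537 (51.3 and 55.2).

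Chromosome ends, taken as the outer 20 kb and 5.31% of the genome, held no shared region (0 of 58, interval up to 6.16%), 2 of 32 G1-only regions and both mock-only regions. The G1-only ones were the PHO12 region and chromosome II 44 to 1612 at YBL113C (86.8 over G1 and 86.8 when called alone). No region overlapped the ribosomal RNA genes themselves.

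Midpoints of the regions were placed relative to protein-coding genes and set beside the same share of all bases, with no test. They fell inside a gene in 51.7% of shared regions (interval 38.2 to 65.0%) and 56.2% of G1-only regions (interval 37.7 to 73.6%), against 72.9% of all bases. Between genes read in the same direction lay 25.9% of shared midpoints (interval 15.3 to 39.0%) and 28.1% of G1-only midpoints (interval 13.7 to 46.7%), against 13.7% of bases. Divergent intervals held 13.8 and 6.25% against 8.83%, and convergent intervals 8.62 and 9.38% against 4.32%.

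Within 500 bp of the 5′ end of a gene lay 53.4% of shared midpoints (interval 39.9 to 66.7%) and 46.9% of G1-only midpoints (interval 29.1 to 65.3%), against 42.4% of bases. Within 500 bp of a 3′ end lay 50.0% (interval 36.6 to 63.4%) and 62.5% (interval 43.7 to 78.9%), against 39.6%. The share of all bases lay outside the interval of shared regions for midpoints inside genes and between genes read in the same direction. For G1-only regions it lay outside for the 3′ end, and at the lower bound, to the digits given, between genes read in the same direction. The intervals of both classes overlap in each of these measures, and the files give no peak summit, so midpoints stand in for the place of strongest signal.

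**Figure D4:**
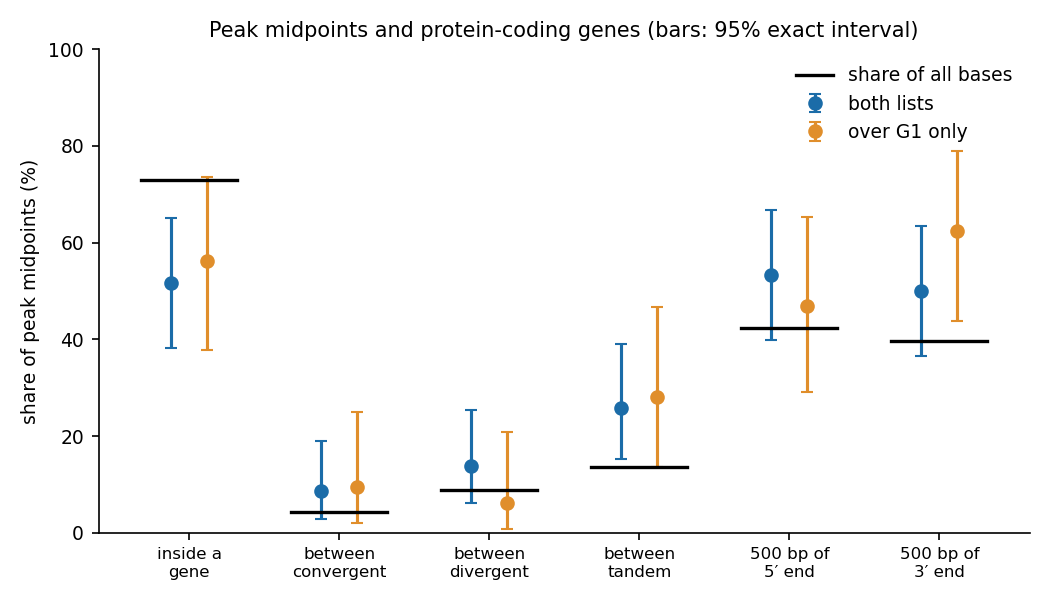
Share of region midpoints in 6 positions relative to protein-coding genes, for the 58 shared and 32 G1-only regions, with 95% exact binomial intervals and a line at the share of all bases. Shared midpoints lie inside genes in 51.7% of cases against 72.9% of bases, and the 2 classes overlap at every position.

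Whether the regions recurred was read from lists of other libraries, as the share of midpoints inside a peak of the other list beside the share of the genome that list covers. In WT Exp C called from HU alone, which covers 3.97% of the genome, lay 12 of 58 shared midpoints (20.7%, interval 11.2 to 33.4%) and 9 of 32 G1-only midpoints (28.1%, interval 13.7 to 46.7%). Both intervals lie above the covered share, and they overlap each other. Of the regions found there, 9 of 12 shared and 6 of 9 G1-only regions were also called from the Control HU library alone. No mock-only region was in that list.

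The shared regions found in WT Exp C were at UBC4 and TEC1, SNP1, BDF2, MPH1, TPO3 with TDA6, the polarity gene CDC42, HXT5, YAH1, ECM38, RVS161 with SAT4, UTP22 and the gap between the cell wall genes CWP2 and CWP1. The G1-only regions found there were at VHR1, ULP1, IMD2 with PHO12, HXT2, PMP1, RPL36A, SNR67 with RML2, ANY1 and RGI2 with SUP17. Of the first 10 G1-only regions 5 were among them, and of the first 10 shared regions 0 of 10. The broad domains with the highest scores were thus not called in the second WT experiment, whose list was made without a reference.

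In mec1 the shares differed between experiments, and no difference was tested. The mec1 Control lists over the mock and over G1, which cover 17.3 and 18.7% of the genome, held 65.5% (interval 51.9 to 77.5%) and 70.7% (interval 57.3 to 81.9%) of shared midpoints and 50.0 and 56.2% of G1-only midpoints. The mec1 Control list called alone (8.02%) held 34.5 and 34.4%. In mec1 Exp A (4.09%) lay 1 of 58 shared and 1 of 32 G1-only midpoints, and in mec1 Exp B (4.46%) 2 of 58 and 3 of 32, with intervals that include the covered share. Of the first 10 shared regions, 9 overlapped the mec1 Control list over the mock and 10 the list over G1, which cover more of the genome than the lists called alone. Among lists called alone, 0 of 10 overlapped mec1 Exp A or Exp B. The mec1 Control list called alone overlapped those at DFP1, HCM1, GBP2, RFX1 and FCP1. It did not overlap those at CDC15, PWP2, HOG1, AVL9 and SAM1.

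By overlap with any part of a peak in the 4 HU lists called alone from other libraries (WT Exp C and mec1 Exp A, Exp B and Control), 24 of 58 shared and 15 of 32 G1-only regions were in none. Only 2 of the 92 regions were in all 4, both over G1 only: the VHR1 region on chromosome IX and the IMD2 and PHO12 region on chromosome VIII. By midpoint, mec1 Exp A held only 1 of 32 G1-only regions, so at most 1 of these 2 was in all 4 by that measure. Recovery in WT, called over HU in Exp C, held no midpoint of any class. The BamHI digest of mec1 G1 DNA, whose peaks cover 14.8% of the genome, held 6 of 58 shared and 9 of 32 G1-only midpoints. Counted by any overlap, the digest reached 17 of 58 shared regions (29.3%) and 11 of 32 G1-only regions (34.4%). Among these were both regions found by overlap in all 4 HU lists, at VHR1 and at IMD2 and PHO12.

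**Figure D5:**
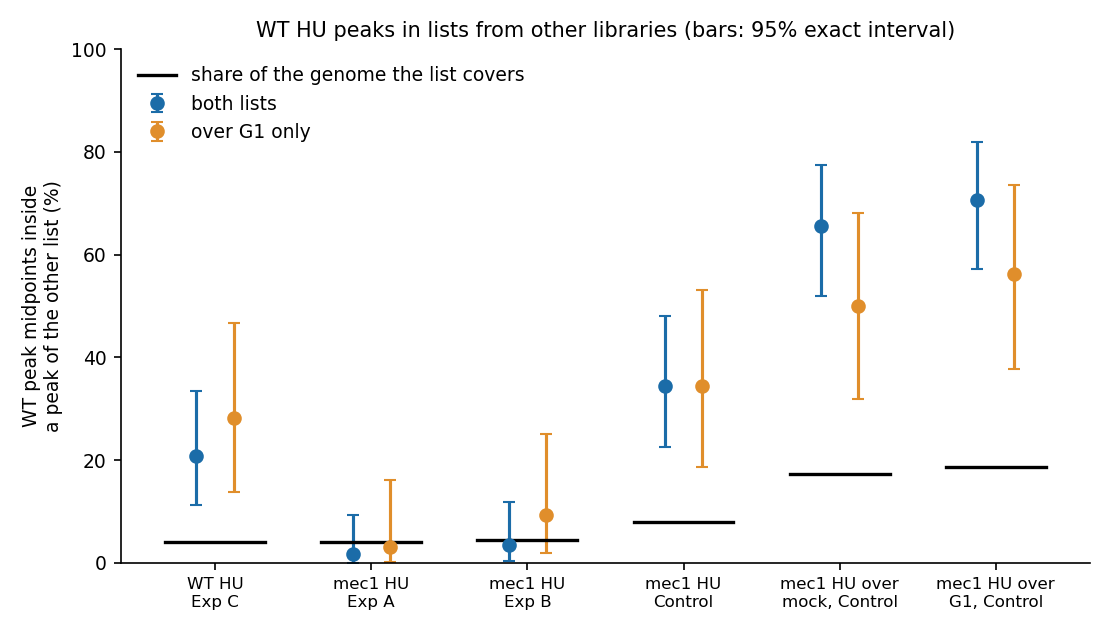
Share of WT Control midpoints that fall inside peaks of 6 lists from other libraries, for shared and G1-only regions, with 95% exact binomial intervals and a line at the share of the genome each list covers. The intervals for mec1 Exp A and Exp B include the covered share, while those for WT Exp C and the 3 mec1 Control lists lie above it.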

How the data were processed

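The deposited files were 13 peak lists in BED form. Per the submitters' processing notes, reads of the Control samples were aligned with BWA to sacCer3, and the labels name MACS with no version. The HU library was called with MACS against the library without biotin or against G1, per the labels' descriptions. For read filters and caller settings, nothing is given in the sources used here. The score per peak was given by the authors' peak caller, without a stated scale, and was used to describe and order peaks. The lists hold no counts.

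From these, peaks were sorted with Python 3.11.15 and scipy 1.17.1, with sorting tested on simulated lists of known overlap. Gene positions (6431 nuclear genes) came from RefSeq's R64 table, the same assembly as sacCer3. Gene direction was read from the systematic name. Each chromosome was taken to end where its last gene or peak ends (12.059 Mb in all). Regions of a class were ordered by the share of peaks in the list with an equal or lower score, averaged over both lists where in both, and the first 10 of each larger class, all mock-only regions, all overlapped members of 14 gene lists, tRNA and snoRNA genes, and regions also in WT Exp C were named. The 4 regions with a score over G1 at least 5 times that over the mock, the regions of mixed domains and the list called alone were picked after their values were seen. The members and gene lists were chosen with earlier results of these data known. Alternatives were another overlap rule, a score minimum, the better-scoring peaks of each list, midpoints and leaving out chromosome ends.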

Additional observations from a re-analysis of the deposited data

How the results depend on the processing

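Of 36 alternative values, 27 stayed within the counting interval of the main value, or within 1.5 times a count. Some of these 27 could not move and say nothing about stability. Shared regions had the same start and end in both lists, so another overlap rule could not change the sorting. None lay in a chromosome end or the ribosomal DNA, so leaving these out could not change the shared class. The 9 values that moved were these. Without chromosome ends and the ribosomal DNA, 100% of mock peaks were also over G1 instead of 96.7%, as this leaves out both mock-only regions. With a score of at least 100 required in all 3 lists, the one called alone included, 28.9% of shared regions were called from HU alone instead of 53.4%. With the minimum in the reference lists only, chosen after the data were seen, the share was 68.4% for shared and 43.5% for G1-only regions (25.0% without a minimum). The minimum also sorts regions anew: 9 of its 23 G1-only regions were shared ones with a lower mock score. The tRNA share of these 23 was 0 instead of 3.12%. With 200 bp around midpoints, the tRNA shares were 1.72% (shared) and 0 (G1 only), and regions overlapped 39 (shared) and 20 (G1 only) genes instead of 132 and 50. The share of G1 peaks also over the mock ranged from 60.0 to 65.9%. Joining peaks at gaps under 2 or 10 kb, chosen after the data were seen, gave 68 or 59 domains instead of 62. No paired analysis was possible because each list is the only one of its group. Unknown depth limits any reading of absence from a list.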
